A study of Homo sapiens with 8 samples.

Results

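In U937-PR9 cells induced to express PML::RARA, the anti-PML::RARA antibody gave 35 Cut&Run peaks at and around genes of the TGF-beta receptor, SMAD and SKI group, of 15412 peaks in the list. The group comprised 10 named genes, TGFB1, TGFBR1, TGFBR2, SMAD2, SMAD3, SMAD4, SMAD6, SMAD7, SKI and SKIL. A peak was taken when it carried the symbol of one of these genes in the authors' annotation, which marks a peak whose apex overlapped the promoter (11 labelled peaks), or when it carried no symbol and its centre lay within 50 kb of the centre of such a peak (24 unlabelled peaks). At least 1 labelled peak was found for 9 of the 10 genes, and SMAD4 had none. The list as a whole named 6546 genes. Among protein-coding genes, 6025 of 20090 (30%) had a labelled peak.

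U937-PR9 is a monocytic line with a PML::RARA transgene under a zinc-inducible promoter. In the study, these cells received 100 μM ZnSO4 (induced) or sterile water (uninduced) for 5 h, and nuclei of both conditions were profiled with antibodies against PML::RARA and against RARA in 2 replicates each, 8 libraries in all. The list analysed here is that of induced cells with the antibody against the fusion, and the other conditions were not analysed here. All induced cells had received zinc, so in this list an effect of zinc and one of the fusion protein cannot be told apart. From this list alone, no peak can be called gained or lost. The paper also called peaks with this antibody in uninduced cells and in NB4 cells, which carry the fusion constitutively, and those calls were not used here. The list gave 1 value per peak for each measure and none per replicate. No replicate spread or test of a difference was therefore available, and every comparison below is a description. Sequencing depth is unknown. The signal sums over all nuclei, so that more nuclei bound and more signal per nucleus cannot be told apart. The list has no expression values, and the identity of the cells was not checked against marker genes.

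TGF-beta is secreted in a latent form and, once released, binds a pair of serine/threonine kinase receptors, TGFBR2 and then TGFBR1. The activated receptor phosphorylates SMAD2 and SMAD3, which join SMAD4 and move to the nucleus to bind DNA with partner factors. SMAD6 and SMAD7 are inhibitory SMADs of the TGF-beta family, and SKI and SKIL bind the SMAD complex at DNA and recruit corepressors. In myeloid cells the pathway is known for its part in growth arrest and differentiation. PML::RARA is the fusion protein of acute promyelocytic leukemia and retains the DNA-binding domain of the retinoic acid receptor.

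The sequences of a few of these peaks are shown because their letters set them apart in the list. They are given on the plus strand of hg19 from 5′ to 3′. The promoter peaks of both inhibitory SMAD genes held the 8-letter palindrome of the SMAD binding element, GTCTAGAC, in capitals in the first pair below. The SMAD6 stretch is chr15:66994442-66994573 and ends at the last base before the start site of the gene. The SMAD7 stretch is chr18:46478528-46478655, upstream of that gene.

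SMAD6 promoter: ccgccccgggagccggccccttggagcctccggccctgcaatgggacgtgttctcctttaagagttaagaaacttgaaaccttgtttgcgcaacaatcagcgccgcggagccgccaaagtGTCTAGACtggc

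SMAD7 promoter: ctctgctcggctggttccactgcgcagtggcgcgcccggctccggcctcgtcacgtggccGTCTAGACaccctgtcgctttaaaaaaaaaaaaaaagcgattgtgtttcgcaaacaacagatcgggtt

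Further sequences come from unlabelled peaks. The central part of an intron 1 peak of SKI, chr1:2187241-2187480, consists of a repeated stretch with a retinoic acid half-site in it (capitals, here always TGACCT, the reverse complement of AGGTCA). The central parts of the highest SKI peak of the set, in the same intron (chr1:2165779-2166018), and of the highest unlabelled TGFB1 peak (chr19:41833961-41834200) are crowded with the SMAD box CAGAC or its reverse complement GTCTG, in capitals.

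SKI intron 1, repeat: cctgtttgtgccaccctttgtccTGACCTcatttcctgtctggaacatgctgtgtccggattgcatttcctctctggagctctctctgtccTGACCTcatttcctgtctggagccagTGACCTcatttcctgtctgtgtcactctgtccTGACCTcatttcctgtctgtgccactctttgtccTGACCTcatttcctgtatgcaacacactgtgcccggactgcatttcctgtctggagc

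SKI intron 1, highest peak of the set: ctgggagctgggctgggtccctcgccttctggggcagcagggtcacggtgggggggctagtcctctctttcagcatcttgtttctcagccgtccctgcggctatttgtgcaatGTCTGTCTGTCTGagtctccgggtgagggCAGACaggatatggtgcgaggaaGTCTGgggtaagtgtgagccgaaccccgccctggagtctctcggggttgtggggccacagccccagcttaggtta

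TGFB1, highest unlabelled peak: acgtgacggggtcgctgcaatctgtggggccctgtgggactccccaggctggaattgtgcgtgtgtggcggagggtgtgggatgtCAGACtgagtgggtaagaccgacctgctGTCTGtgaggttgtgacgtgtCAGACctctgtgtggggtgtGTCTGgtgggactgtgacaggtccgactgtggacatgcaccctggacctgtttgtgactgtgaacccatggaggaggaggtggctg

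Peak height, the largest signal within a peak, had a median of 28 in the set and of 25 over all 15412 peaks. Peak width had a median of 1056 bp in the set and of 829.5 bp over all peaks. The difference in width was found among labelled as among unlabelled peaks. The 11 labelled peaks had a median width of 2011 bp, against 1108 bp for the 7169 labelled peaks of the list, and 10 of the 11 were wider than that median. The 24 unlabelled peaks had a median width of 798 bp, against 634 bp for the 8243 unlabelled peaks. Median height was 29 against 26 for labelled and 26 against 23 for unlabelled peaks, and 7 of the 11 labelled peaks lay above the labelled median. Ranks below run from 1 for the highest or widest of the 15412 peaks, and peaks of equal value share the better rank.

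Among the widest 5% of all peaks (2174 bp or more) were 4 of the 35, at SMAD6, SKI and at TGFB1, where both a labelled and an unlabelled peak were that wide. The background is 5% by definition. For labelled peaks alone, 3 of 11 were in that class, against 8.38% of all labelled peaks. Among the highest 5% (a height of 50 or more, reached by 4.57% of peaks) were 2 of the 35, the SMAD6 promoter peak and the intronic SKI peak. The SMAD6 promoter peak alone was in both classes. In SKI the wide peak and the high peak were different ones, and TGFB1 was picked out by width alone, as the plot of height against width shows.

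**Figure D1:**
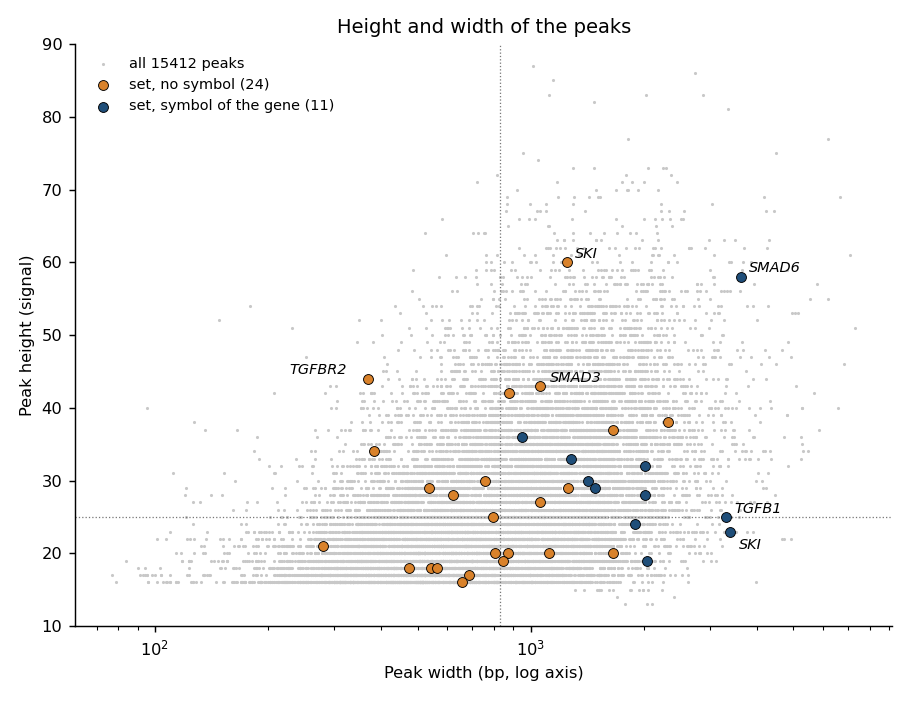
Height (signal) against width (bp, log axis) for all 15412 peaks in grey and for the 35 peaks of the set, 11 labelled in blue and 24 unlabelled in orange; dotted lines are the medians of the list. The SMAD6 promoter peak stands alone at 3638 bp and a height of 58, whereas the wide labelled peaks of TGFB1 and SKI have heights of 25 and 23 and the TGFBR2 intronic peak is narrow and 44 high.

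TGFB1 (ENSG00000105329), the gene of the ligand, lies on the minus strand of chromosome 19 from 41807492 to 41859827. Its labelled peak, from 41857066 to 41860381, spanned the gene's 5′ end, and its apex fell 139 bp upstream of the start site. At 3316 bp this peak was the 138th widest in the list, while its height of 25 equalled the median and ranked 7226th. The apex also lay within the annotated extent of TMEM91. The unlabelled peak from 41832921 to 41835239 was higher, with a height of 38 (rank 2313) and a width of 2319 bp (rank 593). It lay 26.2 kb downstream of the start site, beyond the end of the principal transcript but within the annotated gene. A further unlabelled peak, from 41847899 to 41848373 in intron 3, was among the low ones with a height of 18 (rank 12401) and a width of 475 bp (rank 12386).

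TGFBR1 (ENSG00000106799), the type I receptor, lies on the plus strand of chromosome 9 from 101866320 to 101916474. It was the member with the narrowest labelled peak, 951 bp from 101866638 to 101867588 (width rank 6431), and the only one whose labelled peak was narrower than the labelled median. Its height was 36 (rank 2815), the second highest of the labelled peaks after that of SMAD6. No other peak had its apex over the gene. The 3 unlabelled peaks of its window all lay upstream and were low. The peak from 101820021 to 101820889 was 20 high (rank 10691) and 869 bp wide (rank 7270). The peak from 101821640 to 101821919 was 21 high (rank 9879) and 280 bp wide (rank 14759), and both lay in COL15A1. The one from 101833873 to 101834674 had a height of 20 (rank 10691) and a width of 802 bp (rank 8019).

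TGFBR2 (ENSG00000163513), the ligand-binding type II receptor, lies on the plus strand of chromosome 3 from 30648093 to 30735634. Its labelled peak, from 30647668 to 30649089, had a height of 30 (rank 4820) and a width of 1422 bp (rank 2958). Its apex lay only 49 bp before the start site. A narrow unlabelled peak in intron 1, from 30685603 to 30685970 and 37.7 kb downstream of the start site, reached a height of 44 (rank 1234) within 368 bp (width rank 13800). A second one in intron 2, from 30688017 to 30688558, had a height of 18 (rank 12401) and a width of 542 bp (rank 11399). The intron 1 peak thus exceeded the promoter in height and fell short of it in width and in total signal, which was 5255 against 14014.

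The receptor-activated SMADs differed from each other. SMAD2 (ENSG00000175387, minus strand of chromosome 18 from 45335328 to 45457517) had a labelled peak from 45456379 to 45458397, 2019 bp wide (rank 1013) with a height of 28 (rank 5666). Its window held 1 unlabelled peak, 22.9 kb upstream from 45479881 to 45480444, with a height of 18 (rank 12401) and a width of 564 bp (rank 11095). No peak apex lay over the 122.2 kb of the gene itself. SMAD3 (ENSG00000166949, plus strand of chromosome 15 from 67356101 to 67487511), of similar length, had 8 peak apexes over it. Its labelled peak, from 67357389 to 67358875, had its apex in the 5′ UTR in exon 1, a height of 29 (rank 5211) and a width of 1487 bp (rank 2626). The highest SMAD3 peak carried no symbol and lay in intron 1, from 67373015 to 67374074, with a height of 43 (rank 1386) and a width of 1060 bp (rank 5420). Another pair of unlabelled peaks followed in intron 1. The peak from 67385523 to 67386779 had a height of 29 (rank 5211) and a width of 1257 bp (rank 3931). The peak from 67390474 to 67391529 had a height of 27 (rank 6155) and a width of 1056 bp (rank 5457), and its apex lay 27 bp from the start site of a shorter SMAD3 transcript. The remaining unlabelled peak lay 41.0 kb upstream, from 67316078 to 67317197, with a height of 20 (rank 10691) and a width of 1120 bp (rank 4919).

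SMAD4 (ENSG00000141646, plus strand of chromosome 18 from 48554898 to 48611415), the common partner of the receptor-activated SMADs, was the member without a row in the list. No peak apex lay over the gene. The nearest peak on one side lay 111.7 kb away and was that of MEX3C, with a height of 38. The nearest on the other side lay 149.2 kb away and was that of ME2, with a height of 30. A missing row says only that no peak passed the authors' call and reproducibility filter there.

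SMAD6 (ENSG00000137834, plus strand of chromosome 15 from 66994574 to 67075187) had the strongest promoter peak of the group. It spanned 3638 bp from 66992755 to 66996392, and the apex fell 34 bp before the start site. Its height of 58 ranked 196th, its width 95th and its total signal of 58749 ranked 36th of all peaks. Among genes with a labelled peak, 98.1% had a lower and 98.8% a narrower one. The unlabelled peak 28.6 kb upstream, from 66965373 to 66966246, had a height of 42 (rank 1553) and a width of 874 bp (rank 7215). Downstream of the start site, the peak from 67012606 to 67012988 in intron 3 was narrow (383 bp, rank 13593) with a height of 34 (rank 3401). In intron 2, a peak from 67008120 to 67008963 was 19 high (rank 11488) and 844 bp wide (rank 7535).

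SMAD7 (ENSG00000101665, minus strand of chromosome 18 from 46446223 to 46477335), the other inhibitory SMAD gene, had a pair of labelled peaks, and neither reached the height of 25 that is the median of the list. The peak upstream of the gene, from 46477608 to 46479505, had a height of 24 (rank 7817) and a width of 1898 bp (rank 1263). The peak in intron 1, from 46474875 to 46476917, had a height of 19 (rank 11488) and a width of 2043 bp (rank 973). The unlabelled peaks of intron 3 were higher. The peak from 46448925 to 46449679 was 30 high (rank 4820) and 755 bp wide (rank 8580), and that from 46455098 to 46455891 was 25 high (rank 7226) and 794 bp wide (rank 8121). Beyond the 3′ end of the gene, the peak from 46428124 to 46428743 had a height of 28 (rank 5666) and a width of 620 bp (rank 10294). The remaining peak, 42.0 kb upstream from 46518821 to 46519507, had a height of 17 (rank 13294) and a width of 687 bp (rank 9396).

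SKI (ENSG00000157933, chromosome 1 from 2158827 to 2241652, plus strand), which encodes the corepressor of the SMAD complex, had 7 peaks in the set, the most of any member. Its labelled peak from 2158277 to 2159560 was the 3709th in height and 1284 bp wide (rank 3762), and the second one, from 2160192 to 2163594, was 8433rd in height and with 3403 bp the 124th widest. The highest peak of the set lay 6.2 kb downstream of the start site in intron 1, from 2165273 to 2166524. It had a height rank of 143 and a width of 1252 bp (rank 3961). Farther into intron 1, the peak from 2177877 to 2178413 had a height of 29 (rank 5211) and a width of 537 bp (rank 11473). The peak from 2186535 to 2188186 had a height of 37 (rank 2529) and a width of 1652 bp (rank 1898). Upstream, in FAAP20, the peak from 2120757 to 2121413 was with a height of 16 the lowest of the set (rank 14278) and 657 bp wide (rank 9795). The other unlabelled peak in FAAP20, from 2135851 to 2137507, had a height of 20 (rank 10691) and a width of 1657 bp (rank 1873). Between them, outside the set, lay a peak with the symbol of FAAP20, from 2126043 to 2127652, with a height of 23 (rank 8433). Both unlabelled peaks lay nearer to it than to the labelled SKI peaks, yet by the rule they count in the SKI totals below.

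SKIL (ENSG00000136603, plus strand of chromosome 3 from 170075130 to 170114623) encodes a close relative of SKI. It had a labelled peak from 170074401 to 170076411 and no unlabelled peak within 50 kb. The labelled peak had a height of 32 (rank 4034) and a width of 2011 bp (rank 1035). The labelled peaks of SKI were 33 and 23 high, and SKI had 5 unlabelled peaks around them where SKIL had 0.

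**Figure D2:**
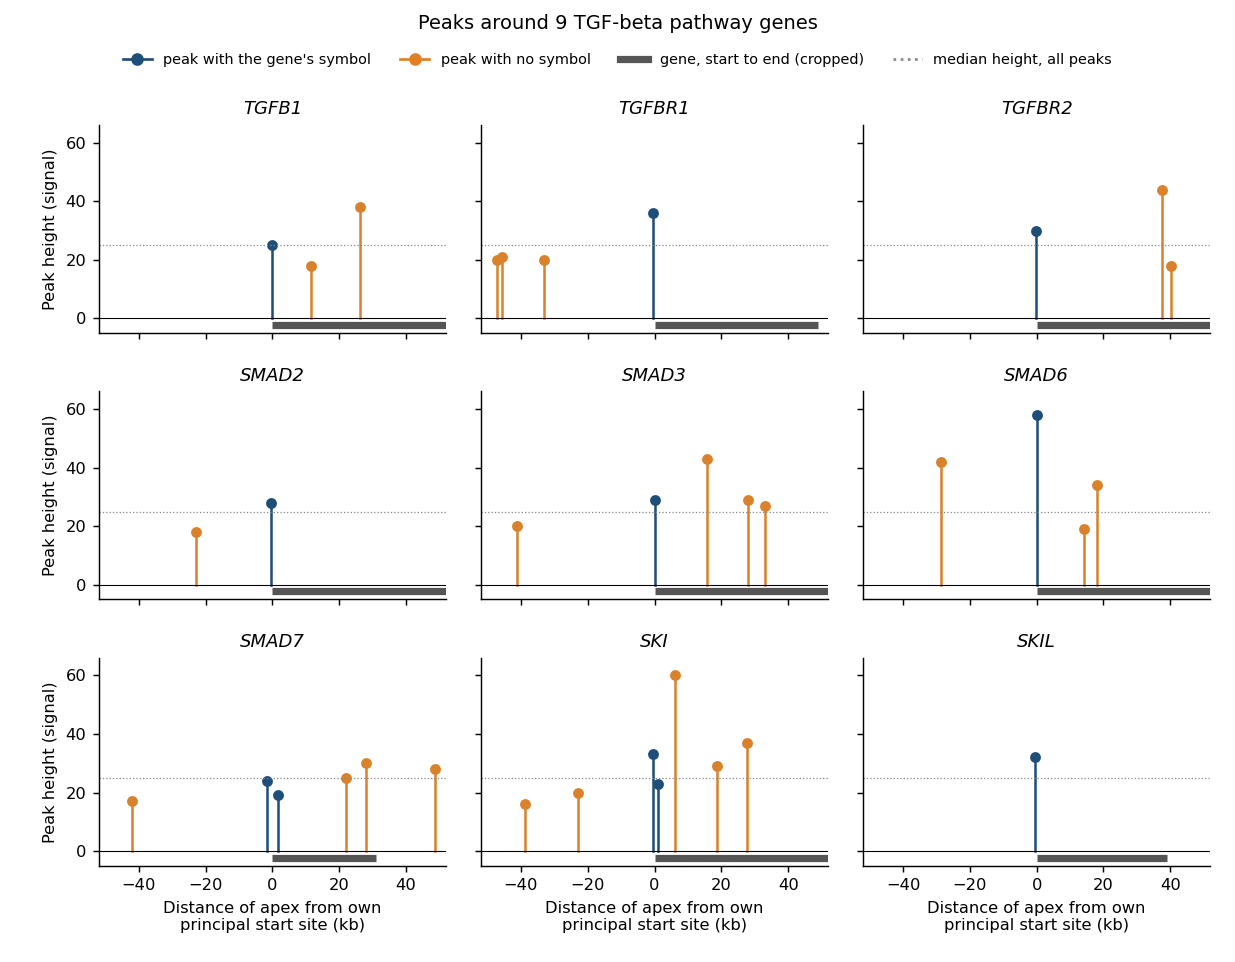
Height (signal) of each of the 35 peaks against the distance of its apex from the principal start site of its gene (kb, negative upstream), 1 panel per gene with a labelled peak. Labelled peaks are blue, unlabelled ones orange, the grey bar is the gene and the dotted line the median of all peaks. Labelled peaks stand near the start site in all 9 panels, at most 1643 bp from it,, and in TGFB1, TGFBR2, SMAD3, SMAD7 and SKI an orange peak is the highest.

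In 5 of the 8 members with both kinds of peak, the highest peak carried no symbol. These were TGFB1, TGFBR2, SMAD3, SMAD7 and SKI. Over the whole list, the same was found for 49.3% of the 3051 genes with both kinds, so the share in the group was close to the background. By total signal, which sums over the width, a labelled peak was the largest within the 50 kb limit in all 8 members, so that an unlabelled peak led in 0 of 8 against 35.6% of the 3051 genes. The step from height to total signal thus turned the order in 5 members. The closest pair by total signal was that of SMAD3, with 12002 in the labelled and 10384 in the unlabelled peak.

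**Figure D3:**
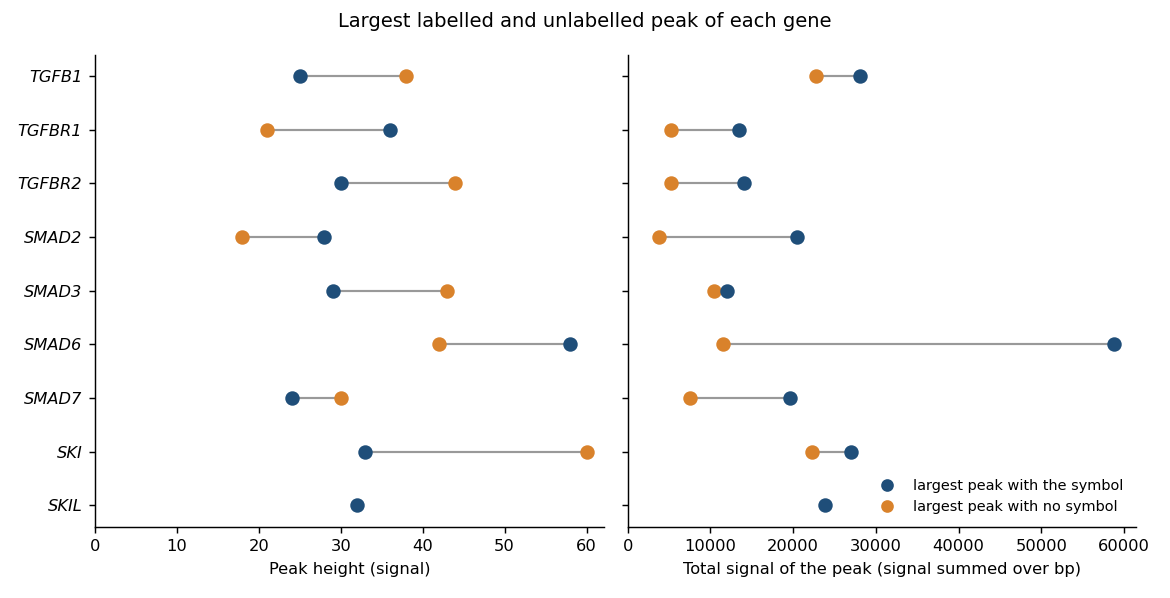
The largest labelled (blue) and the largest unlabelled (orange) peak of each gene, by height on the left and by total signal on the right; SKIL had no unlabelled peak. By height orange lies to the right of blue in 5 of 8 genes, and by total signal in 0 of 8.

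With all peaks of a window summed, SKI had a total signal of 97943, more than 98.5% of the genes treated by the same rule, and SMAD6 one of 80011, more than 96.9%. TGFBR2 was lowest of the 9 with 23242, which still exceeded 67.8% of genes. Such a sum moves with the length covered, which was 10442 bp in SKI, 5739 bp in SMAD6 and 2332 bp in TGFBR2. The labelled peaks held 37.9% of the summed signal in SKI and 27.2% in SMAD3, but 73.4% in SMAD6 and 84.5% in SMAD2. The median gene of the list had 0 unlabelled peaks in its window and the upper quartile was 1. SKI with 5 had more than 96% of genes, SMAD3 and SMAD7 with 4 more than 92.4%, and SMAD6 and TGFBR1 with 3 more than 87%.

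Counted over the gene itself instead of the window, SMAD3 had 8 peak apexes and SKI 7. As many as 8 were found in 44 other protein-coding genes and as many as 7 in 80 others, of 20098. The 3 other genes with 8 apexes that were nearest to SMAD3 in length, at 131.4 kb, were AHNAK (122.7 kb), PTK2B (147.9 kb) and TTC7A (160.3 kb). TGFBR2 had 4 apexes, TGFB1, SMAD6 and SMAD7 had 3 each and TGFBR1 had 1. Of the 3 over TGFB1, 1 was that of a peak with the symbol of CCDC97, outside the set, with a height of 17. No apex lay over SMAD2, SMAD4 and SKIL, 3 of the 10 members, against 70.7% of protein-coding genes.

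The limit of 50 kb left strong SKI peaks outside. The peaks just inside it lay 47.46 kb (SMAD7) and 46.66 kb (TGFBR1) from the labelled centre, with heights of 28 and 20. Just outside lay TGFBR2 and SMAD7 peaks at 51.83 and 52.53 kb, with heights of 25 and 38. The next SKI peaks, both in intron 1, lay at 60.34 kb with a height of 63 (rank 90) and at 70.69 kb with a height of 48 (rank 794). Their widths were 2189 bp (rank 749) and 2088 bp (rank 897). Their total signals were 39665 and 24336, against 27035 for the larger labelled SKI peak. The peak over SKI with the most height and the most total signal therefore was not a member of the set.

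The principal start site lay inside a labelled peak in 7 of the 9 members, against 88.3% of 6369 genes. The exceptions were SMAD7 and SKI, the members with 2 labelled peaks. In both, the principal start site fell in the gap between them. In SKI, the gap of 631 bp ran from 2159561 to 2160191 with the start site at 2159758. In SMAD7, the gap of 690 bp ran from 46476918 to 46477607 with the start site at 46477335. The gap held 1 of the 5 annotated start sites of SKI and 1 of the 8 of SMAD7. The apex of the labelled SMAD7 peak in intron 1 lay 69 bp from another start site of that gene. Among the 477 genes with exactly 2 labelled peaks, 13 (2.73%) had their principal start site in the gap. The labelled peaks of SKI covered 4687 bp of a 5318 bp span and those of SMAD7 covered 3941 bp of a 4631 bp span. Whether reads were lost from the gaps in alignment or filtering was not tested.

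For motifs, both strands of the 400 bp around each peak centre were searched. The retinoic acid half-site (AGGTCA or AGTTCA or GGGTCA or GGTTCA) was found in 20 of the 35 peaks, or 57.1% (95% Wilson interval 40.9 to 72%), and in 54.7% of all peaks. It was found in 4 of 11 labelled and 16 of 24 unlabelled peaks, or 36.4% and 66.7%, against 44.7% and 63.5% in the list. Direct repeats of it with 0 to 5 bases between occurred in 0 of 35 peaks (upper limit 9.89%) and in 1.41% of all peaks. A direct repeat with 2 bases between was found near the apex of the SKI peak from 2177877 to 2178413, but beyond the end of that peak.

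The SMAD box CAGAC was found in 26 of 35 peaks, or 74.3% (57.9 to 85.8%), against 59.7% of all peaks, and the interval includes the latter. The median peak of the list held 1 copy. The highest SKI peak of the set and the unlabelled TGFB1 peak whose sequences are shown above held 9 copies each within 400 bp, a number reached by 3 peaks of the list in all. The repeat-bearing SKI peak held 8, and 5 peaks of the list had 8 or more, of which 3 were in the set. Some copies in the highest SKI peak of the set overlap each other. The apex of the TGFB1 peak, at 41833613, lay outside the stretch printed, whereas that of the highest SKI peak, at 2165977, lay within it. Within 150 bp of the apex, the TGFB1 peak held 1 copy and the highest SKI peak 6.

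The SKI repeat was also unusual for its half-sites. It held 7 within 400 bp, and 10 of the 15412 peaks held as many. Of the overlapping 20-letter words of that peak, 17.3% occurred more than once in it, a share reached by 0.0714% of all peaks. The other pair of peaks rich in CAGAC held no repeated word of that length. The alignment of reads within such a repeat is less certain than elsewhere, and the part of the repeat in the height of 37 was not tested.

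The palindrome GTCTAGAC, which contains neither CAGAC nor its reverse complement, was found in the central 400 bp of 38 peaks, 0.247% of the list. Of these, 9 were labelled (0.126% of labelled peaks), and 2 of the 9 were the promoter peaks of SMAD6 and SMAD7 shown above. In a peak narrower than 400 bp this window extends beyond the peak. Searched over whole peaks, the palindrome was found in 0.502% of labelled peaks and 0.532% of all peaks. In SMAD6 the palindrome, from 66994562 to 66994569, lay 26 bp from the apex and 5 bp upstream of the start site. In SMAD7, from 46478588 to 46478595, it lay 387 bp from the apex of the upstream labelled peak and 1253 bp upstream of the start site. Both genes are known as feedback targets of TGF-beta family signaling. The GC-rich SMAD box GGCGCC was found in 5 of 11 labelled peaks (45.5%, against 37.7% in the list) and in 4 of 24 unlabelled ones (16.7% against 8.77%).

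The ETS core GGAAGT was found in 0 of 11 labelled peaks, against 32% of labelled peaks in the list, and in 7 of 24 unlabelled ones (29.2% against 44.8%). Over whole peaks the direction turned, with GGAAGT in 71.4% of the set and 60.2% of all peaks. It was then found in 10 of 11 labelled peaks (90.9% against 61.7%) and 15 of 24 unlabelled ones (62.5% against 58.9%). The peaks of the set were wider, so more sequence was searched per peak, and the part of width was not tested. In the central 400 bp, the AP-1 motif TGANTCA was found in 0 of 11 labelled peaks against 5.75%, and in 5 of 24 unlabelled ones (20.8% against 25.1%). The SP and KLF motif GGGCGG was found in 9 of 11 labelled peaks (81.8% against 74.3%). The E-box CAGCTG was found in 11 of 24 unlabelled peaks (45.8% against 34.2%), but within 150 bp of the apex its shares were equal (29.2% against 29.2%). TGTGGT, the RUNX motif, was found in 8 of 35 peaks (22.9% against 27.5%), and the CEBP motif TTGCNNAA in 5 (14.3% against 15.3%). The labelled peaks had a median GC content of 71.8%, against 66.5% for all labelled peaks, and its part in these shares was not tested. The highest TGFBR2 peak, in intron 1, held 2 half-sites and 1 CAGAC.

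**Figure D4:**
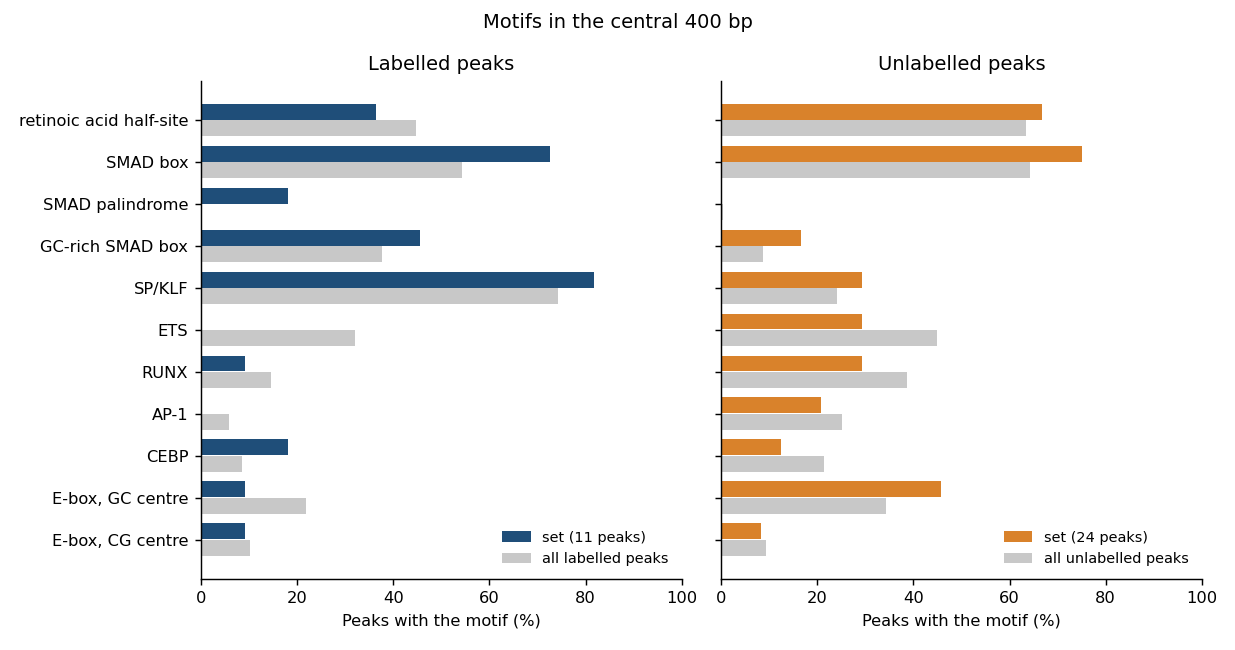
Share of peaks (%) with each motif in the central 400 bp, for labelled peaks on the left (11 of the set in blue) and unlabelled peaks on the right (24 of the set in orange), with all peaks of the same kind in grey. In the labelled panel the SMAD palindrome stands at 18.2% against 0.126%, 2 peaks of 11, and the ETS core at 0 against 32%.

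Among 73 other genes of the pathway, 27 (37%) had a labelled peak, against the 30% of all protein-coding genes. Their highest labelled peaks had heights from 17 to 77 with a median of 26. The shares differed by role. Ligands and the proteins that store or release them had one in 3 of 15 genes, with LTBP4, which binds latent TGF-beta, highest at 33 and widest at 1940 bp. Receptors and their partners had one in 4 of 14. FKBP1A, whose product binds the type I receptor, was highest at 33, and ACVR1, a type I receptor of the family, widest at 1281 bp. TGFBR1, TGFBR2 and TGFB1 had labelled peaks, but the members were chosen with earlier results of these data known. The shares among the other genes of their roles were 20% for ligands and 28.6% for receptors, beside 30% of all protein-coding genes.

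The SMADs of the bone morphogenetic protein branch, SMAD1, SMAD5 and SMAD9, had no labelled peak and no apex over the gene, as was the case for 70.7% of protein-coding genes in the latter respect. The same was found for DACH1, SKOR1 and SKOR2, the relatives of SKI that were looked up. Among genes of SMAD and receptor turnover, 6 of 11 had a labelled peak, all between 18 and 25 in height. SMURF1, a ubiquitin ligase, was highest at 25 and USP9X, a deubiquitinating enzyme, widest at 2025 bp. Nuclear partners had one in 7 of 11. SIN3A, a corepressor scaffold, was highest and widest, at 77 and 6203 bp, more than any member. Of the genes of the parallel kinase branch, 2 of 4 had one. TAB2, an adaptor of the kinase MAP3K7, had both the highest and the widest, at 26 and 2099 bp, and the kinase gene MAP3K7 itself and TRAF6, which encodes a ubiquitin ligase, had none. Among known target genes, 5 of 12 had one, with KLF10, an early response gene, highest at 48 and JUNB, an AP-1 subunit, widest at 5858 bp.

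**Figure D5:**
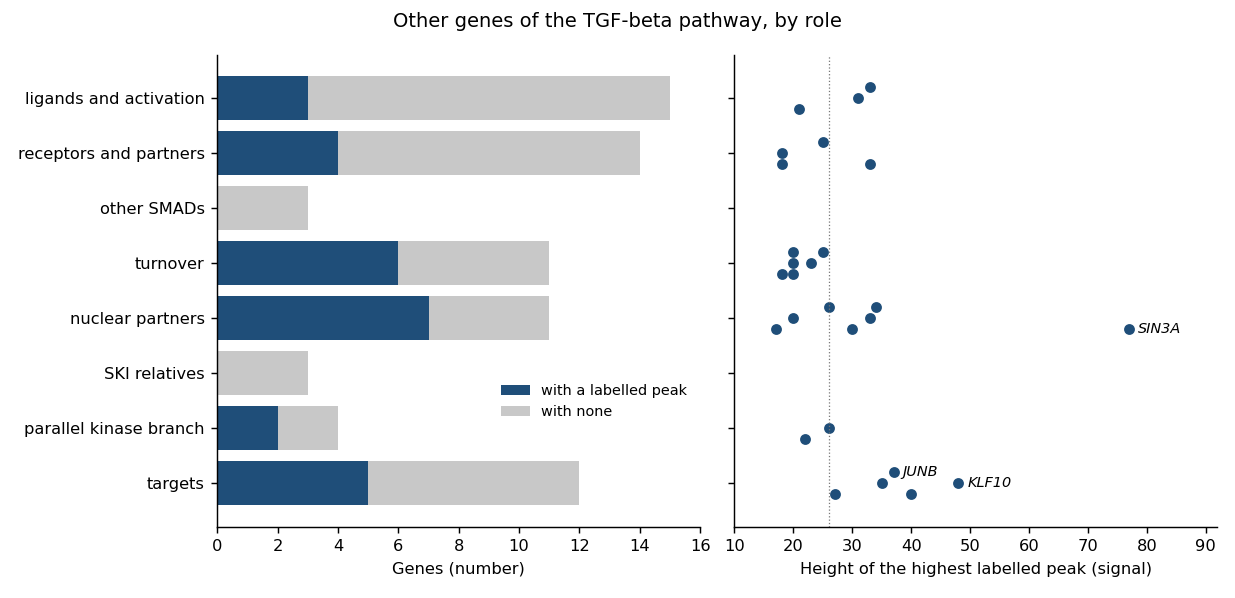
Other genes of the pathway by role, as the number with (blue) and without (grey) a labelled peak on the left and the height (signal) of each gene's highest labelled peak on the right, where the dotted line is the median of all labelled peaks. The other SMADs and the SKI relatives looked up have 0 of 3 each, and SIN3A stands apart at 77.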

How the data were processed

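Reads were trimmed by the authors (Trimmomatic), aligned to hg19 (Bowtie2) and freed of duplicates (SAMtools). Peaks were called with SEACR relative to the matched control and filtered for reproducibility across 2 replicates (IDR below 0.05). The authors deposited, for each peak, its width, a total signal and a score that by its values is the largest signal in the peak (height). Further normalization of the signal, and whether it is of 1 replicate or both, are not given in the sources used here. The authors gave a gene symbol where the apex overlapped a promoter of the UCSC known genes.

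Peaks were placed by their apex, the midpoint of the interval of largest signal, on GENCODE release 44 lifted to GRCh37, the same build, with the Ensembl canonical transcript as the principal one. Widest and highest 5% were taken over the list. Motifs were searched in the genome sequence, a search checked on simulated sequence. No test was run, since the list holds 1 value per peak. The genes, the other pathway genes and the motifs were chosen with earlier results of these data known. Named were all members with their peaks, for each role of other genes the one with the highest and the one with the widest labelled peak, and roles without any. Python 3.11.15, pandas 2.3.3, pysam 0.24.0, scipy 1.17.1, matplotlib 3.10.9 and samtools 1.23.1 were used. Wilson intervals (95%) cover the counting of peaks only.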

Additional observations from a re-analysis of the deposited data

How the results depend on the processing

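The number of members with a labelled peak stayed at 9 with an apex within 1 or 3 kb of a start site in place of the symbol or with peaks at or above the median width, and was 8 with peaks at or above the median height. The set of 35 peaks fell to 21 within 25 kb, rose to 56 within 100 kb and fell to 18 with peaks at or above the median height. It held 35 peaks with any base within 50 kb and 32 with neighbours under 1 kb apart merged. Taking instead every peak whose apex lay over a member gene, at any distance and with any symbol, gave 29 peaks, whereas 19 of the 35 lay over their own gene. The median height moved between 27.5 and 29 and the median width between 897 and 1056 bp without SKI, over gene bodies or, for height, among wide peaks. The count of 5 members led by an unlabelled peak became 0 by total signal. The count of other pathway genes fell from 27 to 16 at or above the median height and was 32 by distance to a start site. The 30% of all protein-coding genes given above holds for the symbol rule. No such share is given for the other rules. The recounts of members and of other pathway genes therefore have no background beside them.

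Motif shares depended on the window. Within 150 bp of the apex the half-site was found in 40% of the set (46.4% of all peaks) and CAGAC in 54.3% (48.9%). The half-site was found there in 45.5% of labelled peaks (37.2% in the list) and 37.5% of unlabelled ones (54.4%). Both directions were opposite to those in the central 400 bp. CAGAC in labelled peaks turned from 72.7% (54.4%) in the central 400 bp to 27.3% (44%) near the apex. In unlabelled peaks it stayed above the list, at 66.7% (53.2%) near the apex. Over whole peaks the half-site was found in 85.7% (79.5%), CAGAC in 88.6% (81.6%), GGAAGT in 71.4% (60.2%) and GGGCGG in 62.9% (58.5%). The half-site share of the set as a whole was below that of the list only near the apex, and its GGAAGT share was above it only over whole peaks. Other motifs also changed near the apex. Among unlabelled peaks, CAGCTG was found there in 29.2% (29.2%) and TGANTCA in 25% (23.9%). Among labelled peaks, GGCGCC was found in 27.3% (28.2%) and TGANTCA in 9.09% (6.11%). The CEBP motif was found near the apex in 17.1% of the set (13.6%). Whole peaks of the set were wider than those of the list, and the part of width in the whole-peak shares was not tested. The palindrome was found in 2.86% (0.156%) near the apex and 5.71% (0.532%) over whole peaks. Its share among all labelled peaks was 0.126% in the central 400 bp and 0.502% over whole peaks. No paired analysis was possible because values of single replicates were not analysed here, nor could a replicate be left out.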
